A study of Mus musculus with 8 samples.

Results

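Transcripts of the cytoskeleton and of cell-matrix adhesion were compared between wildtype and connexin43 null hearts of neonatal mice. The genes were chosen by name: 59 genes of actin and its partners, the Arp2/3 complex, filamentous crosslinkers and the membrane skeleton, microtubules, intermediate filaments and focal adhesions, each read from probes annotated with that single symbol. Of these, 50 had such a probe, and 47 were measured on 3 or more arrays per genotype and tested, among 11804 features and 7603 named genes in all. Pfn1, Actr2, Arpc3, Actn4, Tuba1a, Tuba1c, Tubb2a, Dctn1 and Ilk had no probe with their single symbol, and Cfl2, Capzb and Lmnb1 had too few values. Both groups were C57BL mice, described as wildtype and as connexin43 null, with 4 arrays per genotype and a pool of 3 hearts on each array. The descriptions of all 8 arrays give Cy3 to heart cDNA and Cy5 to a common reference of adult tissues of both sexes, heart among them. The channel fields list the reference first and the heart pool second and name no dye, so the labels do not settle the direction of the ratio. It was read from the values, with muscle genes above genes of other organs, as heart over reference. The labels name no allele, sex or exact day of age, and the connexin43 deletion is not described as limited to a cell type. The question was which of these transcripts differ when connexin43, the main gap junction protein of working heart muscle, is missing.

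Actin filaments grow from monomers that profilin delivers and that cofilin and gelsolin release again, and the Arp2/3 complex starts new branches on existing filaments. Filamins and alpha-actinins cross-link the filaments, and ezrin, radixin and moesin fix them to the plasma membrane. Microtubules are polymers of alpha and beta tubulin, along which kinesin and dynein carry cargo, connexin43 channels on their way to the cell border included. Integrins hold the cell to the matrix and pass force to actin through talin, paxillin and zyxin. In heart muscle these proteins surround the sarcomeres, while non-muscle cells of the heart hold vimentin filaments and cortical actin.

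Each value is the log2 of heart signal divided by reference signal, with array medians set to 0, and each difference is null minus wildtype. Probes given for a gene are those with values on 3 or more arrays per genotype, so some genes had further probes that were not used. The arrays had values at 12971 to 23929 of 28704 spots, fewest on wildtype replicate 1, which also correlated least with the other arrays by rank, at a median of 0.576 against 0.663 to 0.792. Gja1, the deleted gene, read 0.79 to 1.31 on wildtype and -0.29 to 0.25 on null arrays (exact two-sided permutation p = 0.0286, the smallest that 70 assignments allow), by 1 probe whose place relative to the deletion is unknown here. Of the cardiomyocyte markers listed for this work, Myl7, Pln, Atp2a2 and Ttn were measured, and all 4 lay above the reference in wildtype hearts, with lower values in null hearts for 3 of 4 and a median difference of -0.20 (-0.10 without null replicate 1).

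None of the 47 genes passed an adjusted p of 0.05 in limma, as for all features (0 of 11804, 0%). The largest differences were a lower value of Baiap2 (-0.71) and a higher value of Vim (0.63). At an unadjusted p under 0.05, 3 genes had higher values in null hearts (Vim, Flna and Msn), where the share over all features was 2.10%, and 2 had lower values (Baiap2 and Arpc2), where it was 6.13%. The genotypes separated, with null arrays on top, for 1 gene, Msn (2.00% of all features), and with wildtype arrays on top for 2, Baiap2 and Arpc2 (5.54% of all features). The count at an unadjusted p under 0.05 was 5 in all, where the share over all features was 8.23%, and it was 3 without null replicate 1 or without null replicate 3, and 8 without wildtype replicate 4. With the arrays centred, 34 of 47 genes had a higher value in null hearts, against 40.9% of all features, and the median difference was 0.10 against -0.04. Without centring the median of all features moved to -0.18 and 14 of the 47 were above 0, since 20 of them turned their sign. The median of the 47 then lay 0.13 above that of all features, against 0.14 with centring, so that directions below are given for centred arrays and role medians also relative to all features. Without wildtype replicate 1, 31 of 47 were higher and the median was 0.05. In whole hearts, fewer cells of a type and less RNA per cell cannot be told apart. Each array is a numbered pool, and where nothing more is said of its animals p-values measure only the spread between these pools, which may be technical.

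**Figure D1:**
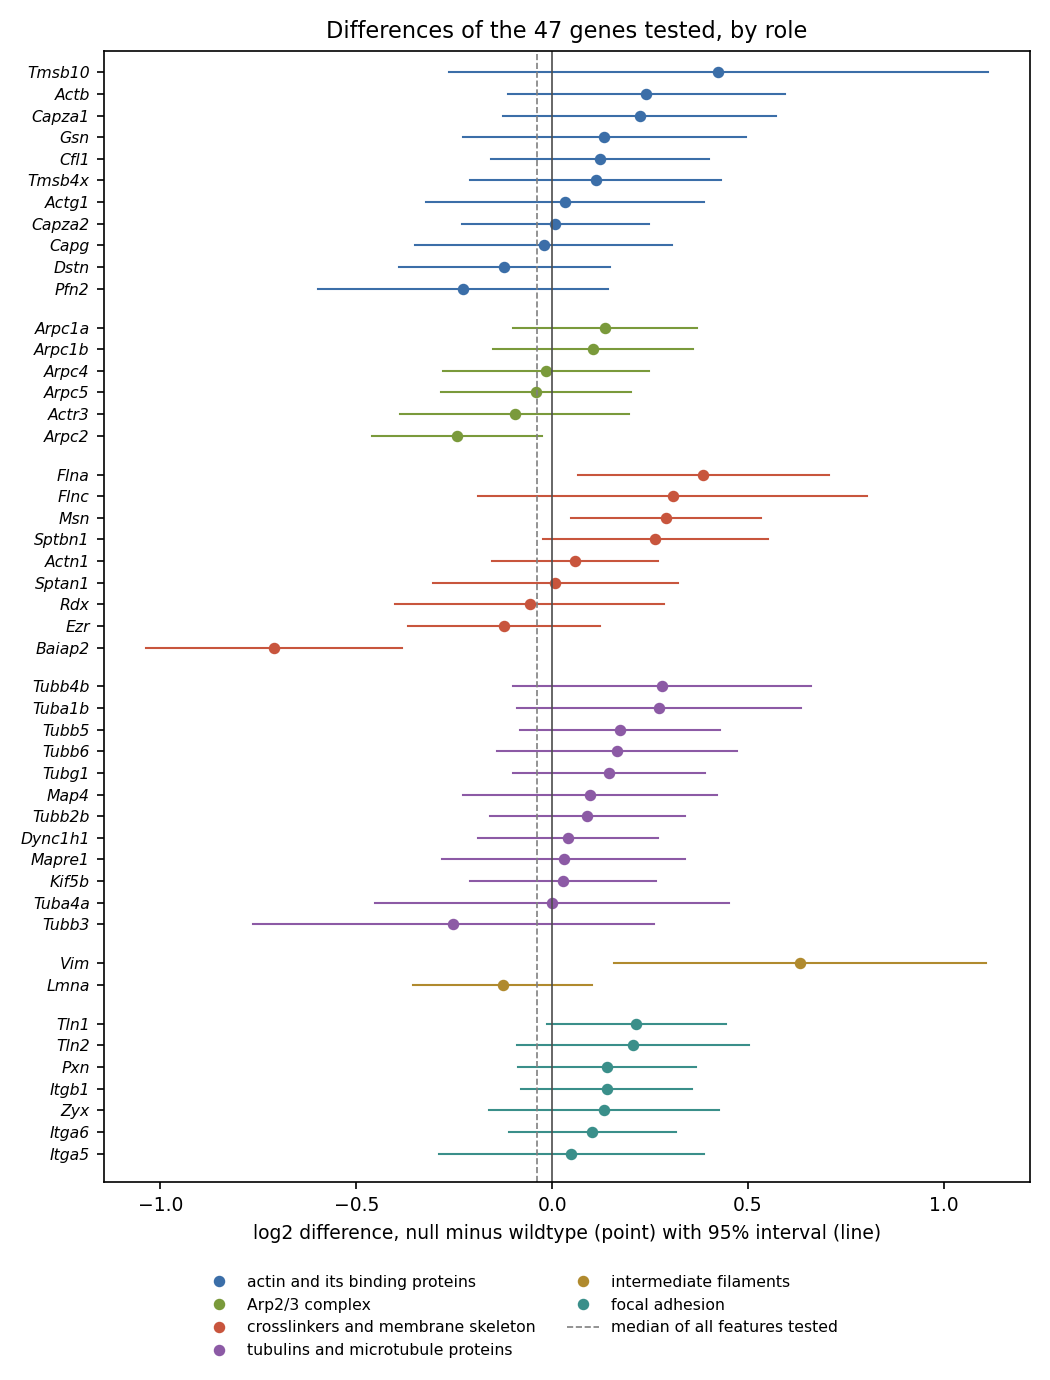
Log2 difference (null minus wildtype, horizontal axis) of each of the 47 genes tested, coloured by role; points are limma estimates from 4 arrays per genotype and lines their 95% intervals, with a dashed line at the median of all features (-0.04). The intervals of Baiap2 and Arpc2 lie below 0 and those of Vim, Flna and Msn above 0, none of which passed after adjustment, and all 7 focal adhesion points lie to the right of 0.

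The 150 bases before the RefSeq start site (GRCm38.p6) are given for the 2 genes with the largest differences in either direction, Baiap2 and Vim, for the 2 other genes whose groups did not overlap, Msn and Arpc2, and for Actg1, the tested actin gene with an entry in the promoter table. Capitals mark matches on either strand to the TATA motif TATAAA, to the GC box motif GGGCGG, to the CCAAT box and to the CArG box, the site that serum response factor binds in many cytoskeletal genes.
Baiap2, chr11:119942942-119943091, plus strand: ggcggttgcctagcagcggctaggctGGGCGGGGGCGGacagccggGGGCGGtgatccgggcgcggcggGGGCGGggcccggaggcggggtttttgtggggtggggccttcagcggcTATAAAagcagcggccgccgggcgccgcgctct
Vim, chr2:13574161-13574310, plus strand: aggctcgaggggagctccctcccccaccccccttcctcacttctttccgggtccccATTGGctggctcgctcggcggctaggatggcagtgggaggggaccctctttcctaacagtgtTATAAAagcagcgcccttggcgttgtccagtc
Msn, chrX:96095895-96096044, plus strand: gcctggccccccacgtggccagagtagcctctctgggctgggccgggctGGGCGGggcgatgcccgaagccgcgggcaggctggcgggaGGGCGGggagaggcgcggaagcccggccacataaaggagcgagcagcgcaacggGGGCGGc
Arpc2, chr1:74236367-74236516, plus strand: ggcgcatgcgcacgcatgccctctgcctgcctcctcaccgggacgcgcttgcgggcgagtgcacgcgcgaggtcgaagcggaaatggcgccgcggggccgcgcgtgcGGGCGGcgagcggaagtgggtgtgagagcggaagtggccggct
Actg1, chr11:120348496-120348645, minus strand: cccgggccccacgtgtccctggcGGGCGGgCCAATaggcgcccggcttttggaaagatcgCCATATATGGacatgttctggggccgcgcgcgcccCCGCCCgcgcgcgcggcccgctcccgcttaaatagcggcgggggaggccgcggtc
Baiap2 and Vim each hold 1 TATAAA, whose first base lies 33 and 32 bases before the start, and the GC box was found 4 times in Baiap2, 3 times in Msn, 1 time in Arpc2 and not in Vim. TATAAA was found within 250 bases before the start in 3 of the 39 tested genes in the table (Baiap2, Mapre1 and Vim), where 14.3% of all 27025 genes there had it, and the GC box in 29 of 39, where 35.4% had it. The CArG box was found in 2 of 39, Actg1 and Arpc4, against 1.62% of all genes, and CCAAT in 14 of 39, against 37.5%. The genes with opposite differences, Baiap2 and Vim, thus shared the TATAAA match, and these letters describe the windows without showing that a factor binds there.

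Of 11 tested genes for actin and the proteins that handle its monomers and filament ends, 8 were higher in null hearts (median difference 0.11), and none had an unadjusted p under 0.05. The median was 0.0049 without null replicate 4 and 0.01 without wildtype replicate 1. Without centring it was -0.05, which is 0.14 above all features. Actb, which encodes the cytoplasmic beta-actin often used to scale other transcripts, read -0.56, 0.27, -0.12 and 0.04 on wildtype replicates 1 to 4 and 0.05, 0.11, 0.18 and 0.25 on null replicates 1 to 4. Wildtype replicate 1 lay far below the other arrays and wildtype replicate 2 above all null arrays, so the groups overlapped. Null hearts exceeded wildtype hearts by 0.24 (SE 0.16, adjusted p = 0.690), and by 0.09 without wildtype replicate 1. Its 3 probes gave differences of 0.34, 0.25 and 0.13. Its spread within groups exceeded that of 73.8% of all features. Actg1, the gamma-actin gene, had 0.03 (95% interval -0.32 to 0.39), and closely related actin transcripts may share signal on cDNA probes.

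Tmsb10, which encodes a thymosin that holds actin monomers, read -0.66, -0.07, 0.21 and 0.36 on wildtype and 0.16, -0.09, 1.39 and 0.09 on null arrays. Null replicate 3 alone was far above the rest, and the other 3 null values lay within the wildtype range. The difference of 0.42 (SE 0.31, adjusted p = 0.719) was 0.09 without that array. Its relative Tmsb4x had 0.11 (SE 0.15), or -0.0038 without wildtype replicate 1. Capza1, an alpha subunit of the protein that caps the fast-growing filament end, read -0.07, -0.0032, 0.04 and 0.32 on wildtype and 0.75, 0.17, 0.08 and 0.18 on null arrays. Null replicate 1 was highest and the groups overlapped, with a difference of 0.22 (SE 0.16, adjusted p = 0.706), or 0.07 without null replicate 1. Its 3 probes gave 0.44, -0.05 and 0.19, and on null replicate 1 they read 1.85, 0.28 and 0.11. The other alpha subunit gene, Capza2, had 0.0076 (95% interval -0.23 to 0.25). The remaining genes of this role lay between -0.23 and 0.13. Pfn2, a profilin, was the lowest, at -0.66 ± 0.34 in wildtype and -0.89 ± 0.18 in null hearts (SD, n = 4 each), with -0.16 and -0.30 on its 2 probes. Its difference of -0.23 was -0.36 without wildtype replicate 1 and -0.12 without wildtype replicate 4. The filament-severing gene Gsn had 0.13 and Cfl1, the non-muscle cofilin, 0.12, while Dstn, the related destrin, had -0.12. The value of Cfl1 was 0.01 without wildtype replicate 1 and that of Gsn -0.02 without null replicate 4. That of Dstn was -0.21 without wildtype replicate 1 and -0.04 without wildtype replicate 4. Capg, a capping protein of the gelsolin family that macrophages hold in quantity, had -0.02 (SE 0.15). Of 12 macrophage and leukocyte markers 5 were measured, all below the reference, 4 with lower values in null hearts (3 without wildtype replicate 1, wildtype replicate 2 or null replicate 3). Their mean level ranged from -1.10 to -0.68 in wildtype and from -1.15 to -0.82 in null hearts. Their part in these values was not tested.

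The Arp2/3 complex, which nucleates branched actin, had 6 of 8 genes tested, and 4 of them had lower values in null hearts. The median difference was -0.03, and relative to all features it was 0.01 with centring and -0.0047 without. It was -0.09 without wildtype replicate 1 and 0.02 without wildtype replicate 4. Arpc2, which encodes a core subunit that holds the complex to the mother filament, read 0.26, 0.35, 0.29 and 0.28 on wildtype and -0.07, 0.09, 0.04 and 0.16 on null arrays. Wildtype arrays were close together and all 4 null arrays lay below them. The difference was -0.24 (SE 0.10, 95% interval -0.46 to -0.03, adjusted p = 0.574), which leaves 84.5% of the wildtype ratio. Its 3 probes gave -0.04, -0.31 and -0.37. Without single arrays the difference ranged from -0.28 to -0.20, and over all other settings from -0.40 to -0.04. The -0.04 rested on 1 probe alone, on which wildtype (0.03 to 0.26) and null arrays (-0.01 to 0.19) overlapped. Arpc1a, one of a pair of alternative subunits, read -0.39, -0.16, -0.11 and -0.21 on wildtype and -0.09, -0.16, 0.05 and -0.13 on null arrays. It had a higher mean in null hearts with overlapping groups, 0.13 (SE 0.11, adjusted p = 0.734). The alternative subunit gene Arpc1b read -0.25, 0.04, 0.11 and -0.19 on wildtype and 0.14, -0.02, -0.04 and 0.05 on null arrays, again with overlap, and had 0.10 (SE 0.12, adjusted p = 0.813). Without centring the differences of Arpc1a and Arpc1b were -0.02 and -0.05, and without wildtype replicate 1 they were 0.08 and 0.05. Actr3, which encodes the actin-related subunit Arp3, had -0.10 (SE 0.13), with a range of -0.18 to -0.02 when wildtype replicate 3 or wildtype replicate 4 was left out, and Arpc4 and Arpc5 had -0.02 and -0.04, with probes of either sign (0.01, -0.31, -0.0058 and 0.13 for Arpc4).

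Crosslinkers and proteins of the membrane skeleton held the widest range, from Baiap2 to Flna. Of 9 genes tested 6 were higher in null hearts (median difference 0.06), and the median without centring was -0.10, or 0.08 above all features. Baiap2, which encodes IRSp53, an adaptor that bends membrane and links the small GTPases Rac1 and Cdc42 to actin, read -0.09, -0.75, -0.28 and -0.57 on wildtype and -1.17, -0.98, -1.26 and -1.11 on null arrays. Each null array was below every wildtype array, although wildtype arrays were themselves spread widely. The difference was -0.71 (SE 0.15, 95% interval -1.04 to -0.38, 1.63-fold lower, adjusted p = 0.370), and its 2 probes gave -0.60 and -0.78. It ranked 17 of 11804 features by p-value and ranged from -0.82 to -0.60 without single arrays.

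Flna, which encodes filamin A, the crosslinker of cortical actin, read -0.27, 0.33, 0.05 and 0.28 on wildtype and 0.61, 0.28, 0.57 and 0.48 on null arrays. Null replicate 2 lay among the wildtype values, so the groups overlapped. The difference was 0.39 (SE 0.15, 1.31-fold higher, adjusted p = 0.567), or 0.26 without wildtype replicate 1. The 3 probes used, of 5 on the array, gave 0.50, 0.38 and 0.35. Flnc, the filamin of muscle cells, was measured on 3 wildtype arrays at 1.42, 0.77 and 1.72 (replicates 1, 3 and 4) and on null arrays at 1.63, 1.52, 1.95 and 1.34. The groups overlapped, with 0.31 (SE 0.22, adjusted p = 0.718), and 0.04 without wildtype replicate 3. Msn, which encodes moesin, the membrane linker of endothelial and blood cells, read 0.25, 0.44, 0.35 and 0.42 on wildtype and 0.53, 0.65, 0.57 and 0.86 on null arrays. With the arrays centred, each null array was above every wildtype array, and the group means differed by 0.29 (SE 0.11, 95% interval 0.05 to 0.53, 1.22-fold, adjusted p = 0.567) on 1 probe. Over the other settings the difference ranged from 0.13 to 0.33. The related linkers Ezr and Rdx had -0.12 (SE 0.11) and -0.06 (SE 0.16), or -0.07 for Ezr without null replicate 1. Of 10 endothelial markers 6 were measured, and 5 of 6 had higher values. The median difference of the 6 was 0.15, or 0.27 without wildtype replicate 1 and 0.07 without wildtype replicate 3. Mean levels overlapped, at 0.39 to 0.99 in wildtype and 0.63 to 0.77 in null hearts. The 0.99 was on wildtype replicate 1, where Flt1 had no value, and Esam had none on wildtype replicate 2. The part of these markers in the value of Msn was not tested. Of the spectrins, Sptbn1 had 0.26 (SE 0.13), with 0.64, 0.28, 0.18, 0.13 and 0.20 on its 5 probes, and Sptan1 0.0086 (SE 0.14). The alpha-actinin gene Actn1 had 0.06 (95% interval -0.15 to 0.27), and its spread within groups was among the lowest 1.08% of all features. The 3 probes of Actn1 gave 0.20, 0.09 and -0.12, with both signs.

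**Figure D2:**
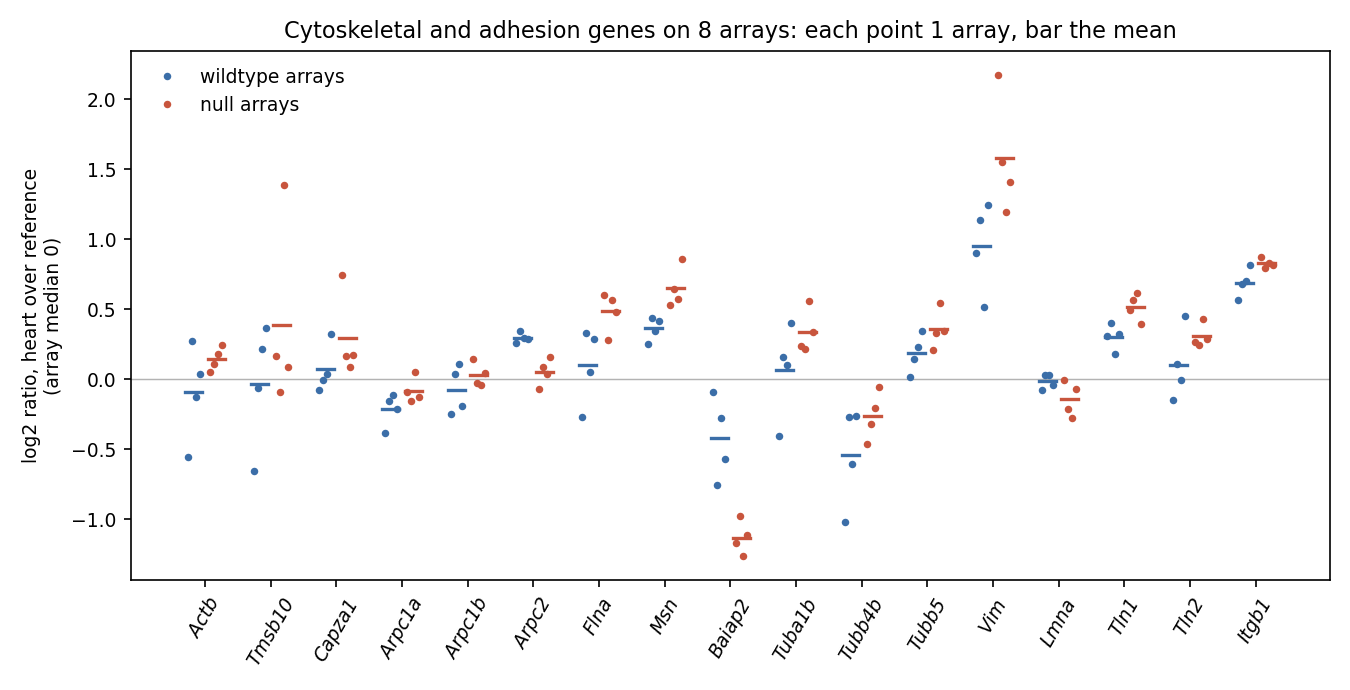
Log2 ratio of heart over reference (vertical axis, array median 0) on each of 8 arrays for the 17 genes given array by array by rule, with 1 point per array (left to right replicates 1 to 4) and bars at group means. Null and wildtype points separate for Arpc2, Msn and Baiap2 and overlap for the other 14. Wildtype replicate 1 is the lowest point of Actb, Tmsb10, Capza1, Arpc1a, Arpc1b, Flna, Msn, Tuba1b, Tubb4b, Tubb5, Tln2 and Itgb1.

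Of the tubulin and microtubule genes 12 of 16 were tested, and 10 had higher values in null hearts. The median was 0.09, or 0.05 without wildtype replicate 1 and 0.16 without wildtype replicate 4. Without centring it was -0.07, or 0.12 above all features. Tuba1b, an alpha tubulin made in most cells, read -0.40, 0.16, 0.10 and 0.40 on wildtype and 0.24, 0.22, 0.56 and 0.34 on null arrays. Wildtype replicate 1 was lowest and wildtype replicate 4 second highest of the 8. The difference was 0.27 (SE 0.16, adjusted p = 0.656), and 0.12 without wildtype replicate 1. Tubb4b, a widely expressed beta tubulin, read -1.02, -0.27, -0.61 and -0.26 on wildtype and -0.46, -0.32, -0.20 and -0.06 on null arrays. Its 2 lowest values were wildtype, and the rest overlapped, with 0.28 (SE 0.17, adjusted p = 0.663), or 0.12 without wildtype replicate 1, while its 3 probes gave 0.20, 0.27 and 0.30. Tubb5, the main beta tubulin of dividing cells, read 0.02, 0.15, 0.23 and 0.35 on wildtype and 0.21, 0.33, 0.55 and 0.35 on null arrays. The groups overlapped, and the difference was 0.17 (SE 0.12, adjusted p = 0.690), or 0.11 without null replicate 3.

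Among the other beta tubulins Tubb6 and Tubb2b had 0.17 (SE 0.14) and 0.09 (SE 0.11). Tubb6 had 0.04 without wildtype replicate 1 and 0.25 without wildtype replicate 4, and Tubb2b 0.03 without null replicate 1. The neuronal form Tubb3 had -0.25 (SE 0.23). Tubb3 read -1.10, 0.29, -0.43 and -0.47 on wildtype and -0.58, -0.81, -0.76 and -0.58 on null arrays, so that the groups overlapped, and wildtype replicate 2 lay far above the other arrays. Its difference was -0.48 without wildtype replicate 1 and -0.01 without wildtype replicate 2. Of 13 neuron and Schwann cell markers Nefl, Nefm and Mbp were measured, all below the reference and all with lower values in null hearts (-0.25, -0.15 and -0.30). Their median was -0.09 without wildtype replicate 2 and -0.07 without null replicate 3. Their mean level ranged from -0.93 to -0.48 in wildtype and from -1.36 to -0.79 in null hearts, and their part in the values of Tubb3 and Baiap2 was not tested. Tuba4a had -0.00047 (95% interval -0.45 to 0.45) from 2 probes at 0.23 and -0.40. Tubg1, the gamma tubulin that seeds microtubules, had 0.15 (SE 0.11) on 1 probe, or 0.08 without wildtype replicate 3. Map4, the main microtubule binding protein outside neurons, had 0.10 (0.21 without wildtype replicate 4 and -0.0053 without null replicate 4), and Mapre1, which encodes the plus-end protein EB1, 0.03 (SE 0.14). The motor genes Kif5b, a kinesin heavy chain, and Dync1h1, the dynein heavy chain, had 0.03 (95% interval -0.21 to 0.27) and 0.04 (95% interval -0.19 to 0.27). Tubulin transcripts are closely alike, and how far their cDNA probes share signal was not tested.

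Intermediate filaments were represented by 2 genes. Vim, which encodes vimentin, the filament of fibroblasts, endothelium and other non-muscle cells, read 0.90, 1.14, 0.51 and 1.24 on wildtype and 2.17, 1.55, 1.20 and 1.41 on null arrays. Null replicate 1 was highest by a wide margin, and wildtype replicate 4 lay just above null replicate 3, the 1 overlap between groups. Vim had 0.95 ± 0.32 in wildtype and 1.58 ± 0.42 in null hearts (SD, n = 4 each). The difference was 0.63 (SE 0.22, 95% interval 0.16 to 1.11, 1.55-fold higher, adjusted p = 0.553) on 1 probe, and 0.44 without null replicate 1. Fibroblast markers, of which 5 of 10 were measured (Col1a2, Col3a1, Dcn, Lum and Pdgfra), were higher in null hearts for 5 of 5, at a median difference of 0.12. Without wildtype replicate 1 it was 2 of 5 and -0.00039, with Lum, Col1a2 and Dcn below 0, and without null replicate 1 it was 4 of 5 and 0.05. Their mean level ranged from 0.28 to 0.67 in wildtype and from 0.45 to 0.78 in null hearts. Pdgfra had no value on wildtype replicate 1, and the part of these markers in the value of Vim was not tested. Lmna, which encodes the nuclear lamins A and C, read -0.08, 0.03, 0.03 and -0.04 on wildtype and -0.0062, -0.21, -0.28 and -0.07 on null arrays. The groups overlapped, with -0.13 (SE 0.10, adjusted p = 0.743), and its 2 probes gave -0.05 and -0.21.

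Focal adhesion genes had the smallest spread between replicates of the 6 roles, with a median within-group SD of 0.0949 against 0.190 over all features. Each of the 7 tested of 8 had a higher value in null hearts, from 0.05 (Itga5) to 0.22 (Tln1), with a median of 0.14, and 0 had an unadjusted p under 0.05. Without centring 5 of the 7 were below 0, and the median was -0.02, which is 0.16 above all features, against 0.18 with centring. The level of the 7 genes by array, as the median deviation from each gene's mean, was -0.10, -0.05, -0.21 and -0.01 on wildtype and 0.08, 0.04, 0.13 and 0.08 on null arrays. With the arrays centred, all null arrays lay above all wildtype arrays, whereas the levels of the other 5 roles overlapped. Over all features the same measure lay between -0.03 and 0.04, null arrays below wildtype arrays. The medians taken off by centring were 0.21, -0.10, -0.31 and -0.11 on wildtype and -0.34, -0.28, -0.08 and -0.24 on null arrays. The separation was not examined without centring.

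Tln1, which encodes talin, the link from integrin to actin, read 0.31, 0.40, 0.18 and 0.33 on wildtype and 0.49, 0.57, 0.62 and 0.39 on null arrays. Null replicate 4 lay just below wildtype replicate 2, the 1 overlap. The difference was 0.22 (SE 0.10, 95% interval -0.01 to 0.44, adjusted p = 0.597), and its 3 probes gave 0.20, 0.13 and 0.28. Tln2, the talin abundant in striated muscle, read -0.15, 0.11, -0.0053 and 0.45 on wildtype and 0.27, 0.24, 0.43 and 0.29 on null arrays. Wildtype replicate 4 was above all null arrays and the other 3 below them, with 0.21 (SE 0.13, adjusted p = 0.683), or 0.12 without wildtype replicate 1. Itgb1, the beta1 integrin shared by most matrix receptors of the heart, read 0.56, 0.68, 0.70 and 0.81 on wildtype and 0.87, 0.80, 0.83 and 0.82 on null arrays. Null arrays were close together and wildtype replicate 4 reached into their range, with 0.14 (SE 0.10, adjusted p = 0.708), and its 5 probes ranged from -0.08 to 0.37. The adaptor gene Pxn (paxillin) had 0.14 (SE 0.10) and Zyx (zyxin), found where filaments are under tension, 0.13 (SE 0.13). Pxn had 0.08 without wildtype replicate 1 and Zyx 0.05 without wildtype replicate 3. The integrin alpha genes Itga6, a laminin receptor, and Itga5, the fibronectin receptor, had 0.10 (SE 0.10) and 0.05 (SE 0.15), the latter with 0.22 and -0.13 on its 2 probes.

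**Figure D3:**
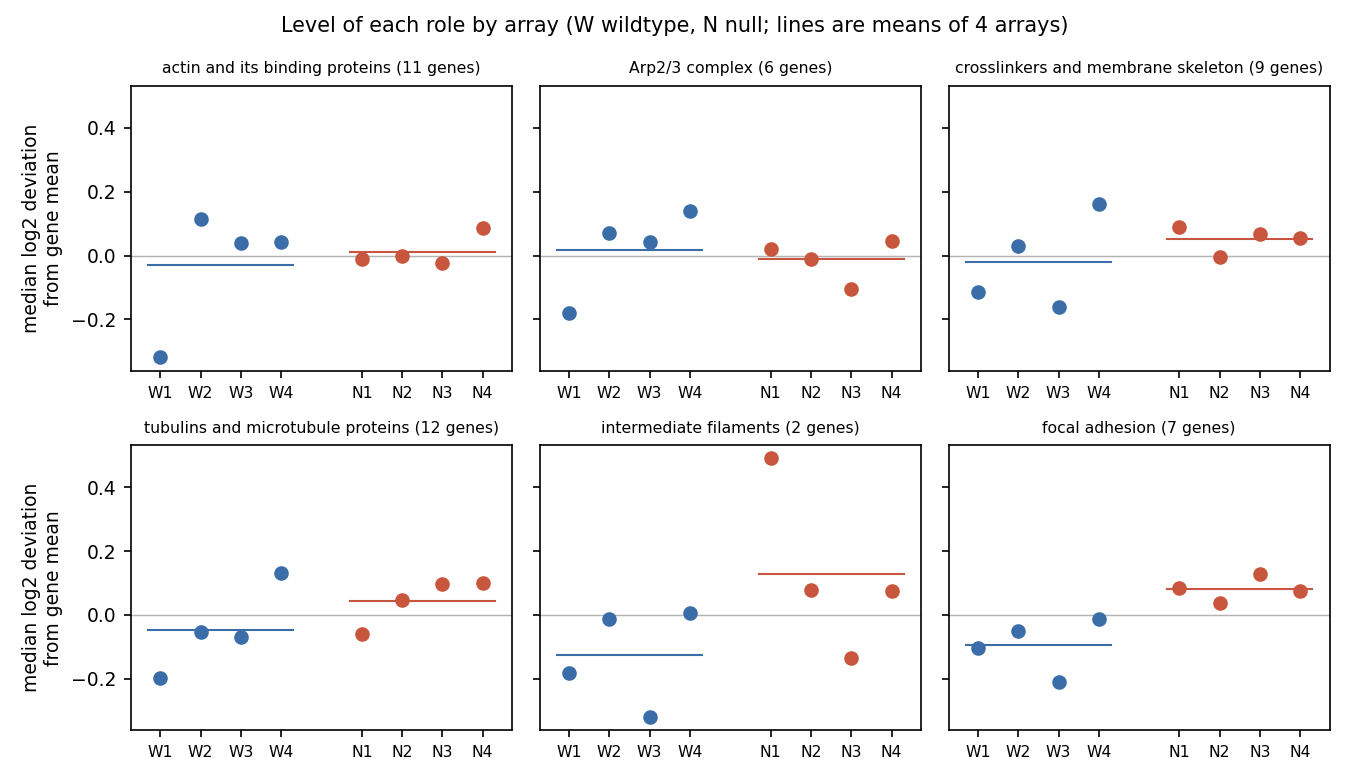
Median log2 deviation from the gene mean (vertical axis) on wildtype (W1 to W4) and null arrays (N1 to N4), in a panel per role, with lines at the mean of 4 arrays. With the arrays centred, levels separate by genotype in the focal adhesion panel. W1 is the lowest array for actin (-0.32), Arp2/3 (-0.18) and tubulin genes (-0.20).

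Wildtype replicate 1 stood apart for these genes. Of the 46 genes measured on all arrays 27 had their lowest value on wildtype replicate 1, 58.7%, against 25.7% of all complete features, which had their highest value there in 27.4% (3 of the 46 did). The lowest value lay there for 9 of 11 actin genes, 7 of 12 microtubule genes, 4 of 6 Arp2/3 genes, 4 of 8 crosslinkers, 3 of 7 adhesion genes and 0 of 2 intermediate filament genes. The actin level was -0.32 on that array and 0.04 to 0.12 on the other wildtype arrays. Wildtype replicate 4 was the highest array for 12 of the 46, so that wildtype arrays bracketed the null arrays in the overall level of the 47 genes, -0.23 to 0.11 against 0.0029 to 0.08.

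Probes of 1 gene gave a check within the same arrays, for probes with enough values only (3 of 5 for Flna and 5 of 6 for Sptbn1). Of 26 genes with several probes 14 had all probes on one side of 0, 53.8%, against 52.2% of 3035 such genes over the whole table. The range between probes had a median of 0.19, as over all such genes (0.19). Probes kept one sign for Actb, Flna, Map4, Mapre1, Sptbn1, Tubb4b, Tubb5 and Tln1 among genes with higher values, and for Baiap2, Arpc2, Ezr, Pfn2, Dstn and Lmna among those with lower values. Mapre1 had probes as low as 0.0012 and 0.0034. By contrast, the probes of Tuba4a, Capza1, Capza2, Arpc4, Arpc5, Actn1, Rdx, Sptan1, Kif5b, Itga5, Itgb1 and Tubb2b took both signs.

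**Figure D4:**
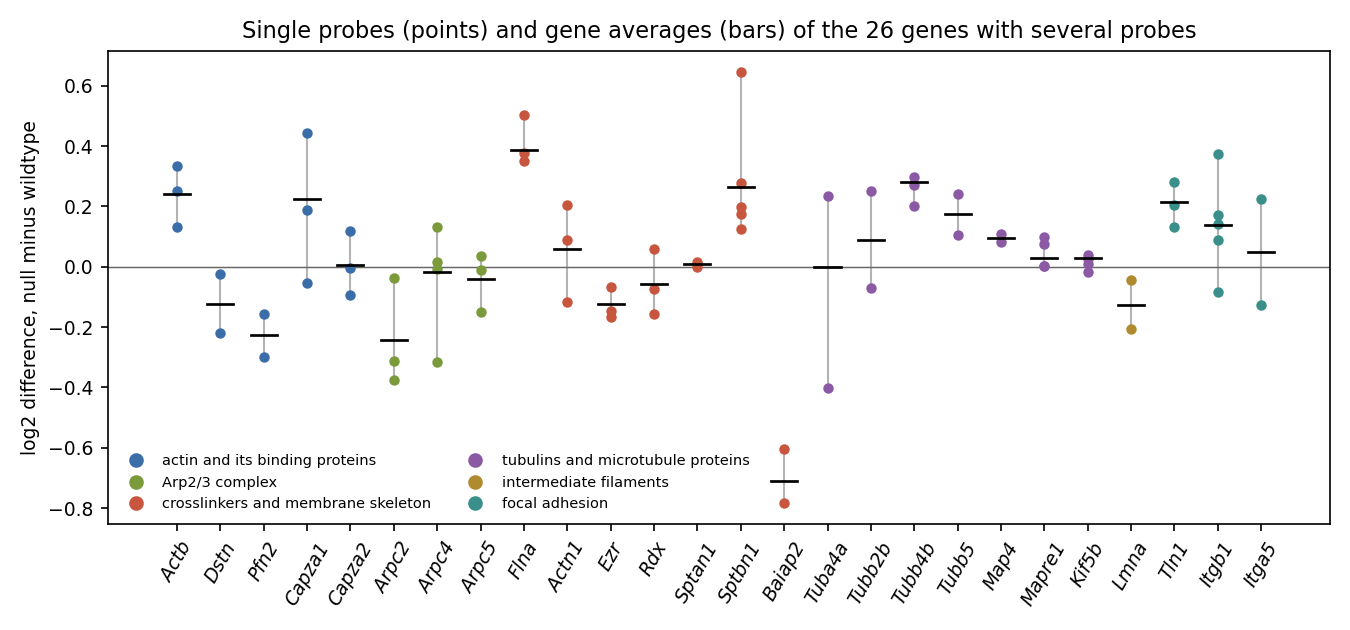
Log2 difference (null minus wildtype, vertical axis) of each probe (points, coloured by role) of the 26 genes with several probes, with the gene average as a black bar. The 2 probes of Baiap2 lie at -0.60 and -0.78 and the 3 of Flna between 0.35 and 0.50, while those of Tuba4a lie on opposite sides of 0.

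Members of a family were set side by side, as 23 pairs within 12 families. Groups did not overlap in the difference between the 2 genes of a pair for 2 pairs, where 2.00% of all single features separated upward and 5.54% downward. One was Msn and Ezr, whose differences had opposite signs (0.29 and -0.12), and the other Cfl1 and Dstn (0.12 and -0.12), whose products both sever actin filaments, and whose values moved as given above when wildtype replicate 1 was left out. The talins Tln1 and Tln2 had nearly the same difference (0.22 and 0.21), and the filamins Flna and Flnc both had higher values in null hearts. The differences within pairs were not tested.

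Other genes of the pathway were read from lists drawn up for this work, 155 genes of which 102 were tested. None passed an adjusted p of 0.05, and 2 had higher and 3 lower values at an unadjusted p under 0.05, where the shares over all features were 2.10% and 6.13%. Of 36 other actin regulators 22 had higher values, with a median of 0.05, but 17 did without wildtype replicate 1, with a median of -0.0049. Twf1, a twinfilin that binds actin monomers, had -0.44 (SE 0.14, adjusted p = 0.553) over 3 wildtype arrays, and Tagln2, a small actin binding protein, had 0.23 (SE 0.10, adjusted p = 0.594), both without overlap. The kinase gene Limk2, which inactivates cofilin, had -0.22 (SE 0.14, adjusted p = 0.671). Of 23 other microtubule proteins 13 had higher values (median 0.01), and 10 did without wildtype replicate 1 (median -0.04). Map7, which recruits kinesin to microtubules, had -0.80 (SE 0.25, adjusted p = 0.553) over 3 wildtype arrays and -0.48 without wildtype replicate 1. The neuronal kinesin gene Kif5c had -0.43 (SE 0.19, adjusted p = 0.594) and Tubb4a -0.30 (SE 0.19, adjusted p = 0.667), the latter over 3 wildtype arrays. The chaperonin and tubulin folding list had higher values for 6 of 12 genes (median -0.01), or 3 of 12 without wildtype replicate 1 (median -0.07), with the prefoldin genes Pfdn4 at -0.32 (SE 0.16, adjusted p = 0.597) and Vbp1 at -0.17 (SE 0.13, adjusted p = 0.722) and the chaperonin gene Cct5 at -0.13 (SE 0.12, adjusted p = 0.773). Of 19 other adhesion proteins 10 had higher values (median 0.03), and 9 without wildtype replicate 1 (median -0.02), so that the one direction of the 7 adhesion genes above was not seen across this longer list. The caveolin gene Cav1 had 0.26 (SE 0.12, adjusted p = 0.594), the adaptor gene Crk 0.28 (SE 0.15, adjusted p = 0.614) and the kinase gene Src -0.25 (SE 0.15, adjusted p = 0.642). The 4 muscle actin genes listed had 0 tested.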

How the data were processed

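Per the labels, each array compared cDNA of a heart pool with the common reference. The authors deposited 1 value per spot, read here as a log2 ratio. How they normalized it is not given in the sources used here, and array medians differed from 0. The base was inferred: differences between spots matched log2 ratios of whole numbers up to 120 in 8347 of 31304432 pairs (tolerance 1.5e-09), against 269 for natural logs and 863 for log10. The direction was inferred too, since 6 sarcomere genes had a higher median than the 8 or 9 genes measured of other adult organs on 8 of 8 arrays.

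Each array was centred on its median. Of 28704 spots 18511 had 1 gene symbol, 937 several and 9256 none, and 18267 of the first matched the RefSeq gene table. Only spots with values on at least 3 arrays per genotype were used. Those of 1 symbol were averaged by a plain mean where complete, and otherwise by an additive fit of spot and array effects. Features with values on at least 3 arrays per genotype were kept. limma 3.58.1 (R 4.3.3) fitted null minus wildtype over 11804 features with Benjamini-Hochberg adjustment over all of them. On simulated data for this comparison with 11804 features, 0%, 85.5% and 98.5% of 200 changed features were recovered at log2 changes of 0.5, 1 and 2. The simulation drew noise independently for each array and feature, so these shares need not hold for the measured arrays. There Gja1, at a difference of -0.95 (SE 0.15), had a limma adjusted p of 0.340. Of the 47 genes 2 differed by more than 0.5. The number of arrays limits the precision, and depth has no counterpart here.

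The genes, roles and lists were chosen with earlier results of these data known. Array values are given for genes with an unadjusted p under 0.05 or no overlap and for the 3 with the smallest p in each role. Flnc and Tubb3 were added after their values were seen. The counts over other pathway genes include 1 list whose own values are not reported here. Motifs were searched on both strands of RefSeq windows (GRCm38.p6). Replicate numbers did not pair the arrays. Alternatives were other centring, scaling, probe averaging, filters, variance models, array weights, a replicate block and leaving out each array. Leaving out each array for the marker and pathway lists was added after seeing the data.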

Additional observations from a re-analysis of the deposited data

Results flagged for a closer look

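In 4 of 93 groups of 4 arrays, 1 array lay far from the other 3 by the gap to its nearest neighbour over the whole range of the group (beyond Dixon's critical value), and chance gives about 1 in 20. Capza1 read 0.75 on null replicate 1, where the other null arrays lay between 0.08 and 0.18. The single probes of Capza1 read 1.85, 0.28 and 0.11 on null replicate 1. Tuba4a read -1.39 on null replicate 1, where the other null arrays lay between -0.64 and -0.53. The single probes of Tuba4a read -0.89 and -1.89 on null replicate 1. Mapre1 read 0.61 on null replicate 3, where the other null arrays lay between 0.16 and 0.21. Itga6 read 0.25 on null replicate 3, where the other null arrays lay between 0.38 and 0.40. The difference of Tuba4a was -0.00047 with all arrays and 0.20 without null replicate 1. That of Mapre1 was 0.03, and -0.08 without null replicate 3, and that of Itga6 0.10, and 0.14 without null replicate 3. The cause of these values was not tested.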

How the results depend on the processing

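No feature and none of the 47 genes passed an adjusted p of 0.05 under any setting run. Without centring, 14 of 47 genes were above 0, and the median of all features was -0.18, of the 47 genes -0.055, of actin genes -0.047, Arp2/3 -0.19, crosslinkers -0.099, microtubule genes -0.066 and focal adhesion genes -0.019. At an unadjusted p under 0.05, features then split into 28 higher and 1364 lower, and the 47 genes held 3, not 5. With values on all 8 arrays 440 features were lower. With the probe with the fewest missing values the crosslinker median was 0.20 and the focal adhesion median 0.20. Over all settings the median of the 47 genes stayed 0.089 to 0.16 above that of all features, and that of focal adhesion genes 0.14 to 0.24. Leaving out each array gave 30 to 37 genes with higher values, and medians of 0.050 to 0.11 for all 47, 0.0049 to 0.18 for actin, -0.094 to 0.024 for Arp2/3, 0.026 to 0.084 for crosslinkers, 0.046 to 0.16 for microtubule, 0.13 to 0.34 for intermediate filament and 0.12 to 0.18 for focal adhesion genes. Without centring, the sign turned for Actg1 -0.13, Cfl1 -0.037, Tmsb4x -0.047, Gsn -0.025, Capza2 -0.15, Arpc1a -0.024, Arpc1b -0.054, Actn1 -0.099, Sptan1 -0.15, Tubb2b -0.068, Tubg1 -0.013, Map4 -0.063, Mapre1 -0.13, Kif5b -0.13, Dync1h1 -0.12, Itgb1 -0.019, Itga5 -0.11, Itga6 -0.055, Pxn -0.018 and Zyx -0.026. With centring within 48 blocks, the sign turned for Capg 0.043 and Capza2 -0.018. With quantile normalization, the sign turned for Capg 0.029, Capza2 -0.014, Sptan1 -0.018 and Tuba4a 0.022. With arrays scaled to equal spread, the sign turned for Capg 0.016, Capza2 -0.019, Sptan1 -0.026, Tuba4a 0.051 and Kif5b -0.0019. With array weights, the sign turned for Capg 0.14, Capza2 -0.033, Sptan1 -0.020, Tuba4a 0.071 and Mapre1 -0.00063. With the probe with the fewest missing values, the sign turned for Capza2 -0.093, Arpc4 0.015, Tuba4a 0.23, Tubb2b -0.071 and Kif5b -0.019. With values on all 8 arrays, the sign turned for Arpc4 0.074 and Tuba4a 0.23. With at least 2 values per group, the sign turned for Rdx 0.013. The cause was not tested. Among genes whose sign turned when 1 array was left out, differences ranged as follows: Actg1 -0.099 to 0.11, Tmsb4x -0.0038 to 0.19, Capg -0.13 to 0.076, Gsn -0.020 to 0.21, Capza2 -0.067 to 0.052, Arpc4 -0.11 to 0.039, Arpc5 -0.092 to 0.0091, Rdx -0.19 to 0.047, Sptan1 -0.082 to 0.084, Tuba4a -0.13 to 0.20, Map4 -0.0053 to 0.21, Mapre1 -0.078 to 0.11, Kif5b -0.037 to 0.062 and Itga5 -0.056 to 0.15. Same-numbered arrays had correlations of -0.24, -0.009, -0.25 and -0.016, so the numbers did not pair the arrays. The replicate block called 0 features and 0 of the 47 genes, left 4 genes at an unadjusted p under 0.05 and 34 higher. Under it the median of the 47 genes was 0.10, and no gene turned its sign.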

Other observations

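Smooth muscle and pericyte markers, 4 of 9 measured, had mean levels of -0.43 to -0.02 in wildtype and -0.31 to 0.16 in null hearts, with 1 of 4 higher in null hearts (3 of 4 without null replicate 3). Erythroid markers, 8 of 13 measured, had -0.57 to 0.05 and -0.12 to 0.08, with 7 of 8 higher (5 of 8 without wildtype replicate 4). Mesothelial and epicardial markers, 3 of 7 measured, had -1.30 to -0.37 and -0.78 to -0.51, with 1 of 3 higher (2 of 3 without null replicate 2 and 0 of 3 without wildtype replicate 3). Each mean level is taken over the markers with a value on that array. Wildtype replicate 1, lowest for mesothelial and epicardial markers, had no value for Msln, which lay above the reference on the other arrays. Null replicate 2, highest for smooth muscle and pericyte markers, had none for Mylk, which lay below the reference on the others. Wildtype replicate 1 also lacked Hbb-bh1, Hbb-y and Rhag, and wildtype replicate 3 lacked Rgs5. The groups overlapped in all 3 lists, and the part of these markers in the values of the 47 genes was not tested.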
